A study of Mus musculus with 16 samples.

Results

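Tubulin genes and genes for microtubule-associated proteins were followed across 16 arrays of mouse left ventricle. The genes were Tuba1a, Tuba4a and Tuba8 (alpha-tubulins), Tubb2a, Tubb2b, Tubb3, Tubb5 and Tubb6 (beta-tubulins), Map4 and Stmn1. Every probe set whose annotation gave 1 of these symbols and no other gene was taken, which gave 21 probe sets of 10 genes, of 45101 probe sets and 18193 genes in all. Another 2 probe sets were shared with a further gene and were left out. Wild-type mice (WT) and mice lacking PPARalpha (PPARalpha-/-, here KO), a nuclear receptor that drives genes of fatty acid oxidation, had either sham surgery or transverse aortic constriction (TAC), an operation that raises the pressure against which the left ventricle pumps. Tissue was profiled 28 days later on Affymetrix 430 2.0 arrays, with 4 arrays per combination of genotype and surgery, written as KO TAC, KO sham, WT TAC and WT sham. The labels name no strain, sex or age, no promoter or cell type to which the PPARalpha loss is limited, and do not say whether each array came from a separate mouse, so p-values measure only the spread between arrays.

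Microtubules are hollow polymers of paired alpha- and beta-tubulin. In heart muscle cells they form a lattice around the nucleus and between the myofibrils, carry cargo, and are linked to the contractile apparatus through desmin. Several genes encode near-identical alpha- or beta-tubulins, and cells mix these isotypes. Enzymes remove and restore the terminal tyrosine of alpha-tubulin or add glutamates, MAP4 binds along and stabilises the polymer, and stathmin (Stmn1) sequesters free tubulin and favours disassembly. A denser and more detyrosinated microtubule network is a known feature of pressure-overloaded heart muscle and adds to its stiffness.

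Promoter sequence is shown for 3 genes: Tubb2a, which passed the test in 1 comparison, Tuba4a, whose KO arrays differed in the opposite direction, and Tubb5, whose signal was the most even in WT sham. Each is the 250 bases before the RefSeq transcription start (build GRCm38.p6), read 5′ to 3′ in the direction of the gene. Capitals mark matches on either strand to the TATA box TATAAA, the CCAAT box CCAAT and the GC box GGGCGG.
Tubb2a: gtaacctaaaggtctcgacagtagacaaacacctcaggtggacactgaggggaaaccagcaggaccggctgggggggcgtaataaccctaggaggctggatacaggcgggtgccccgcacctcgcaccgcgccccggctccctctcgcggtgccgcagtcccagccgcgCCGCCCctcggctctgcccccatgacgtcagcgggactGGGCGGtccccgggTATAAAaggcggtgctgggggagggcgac
Tuba4a: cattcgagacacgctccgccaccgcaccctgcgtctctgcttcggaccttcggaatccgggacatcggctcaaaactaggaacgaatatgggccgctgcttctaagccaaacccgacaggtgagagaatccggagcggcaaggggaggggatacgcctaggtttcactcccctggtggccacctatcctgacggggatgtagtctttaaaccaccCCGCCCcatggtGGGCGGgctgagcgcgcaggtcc
Tubb5: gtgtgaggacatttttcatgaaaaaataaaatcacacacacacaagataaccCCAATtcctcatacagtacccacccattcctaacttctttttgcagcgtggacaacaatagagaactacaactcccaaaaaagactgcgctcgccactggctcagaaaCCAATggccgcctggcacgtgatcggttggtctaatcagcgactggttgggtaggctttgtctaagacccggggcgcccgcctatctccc
The Tubb2a window, chr13:34078009-34078258 on the minus strand, held 1 TATAAA beginning 29 bases before the start and 2 GC boxes. The Tuba4a window, chr1:75219295-75219544 on the minus strand, held 2 GC boxes and neither of the other motifs. The Tubb5 window, chr17:35838302-35838551 on the minus strand, held 2 CCAAT boxes. Of 32851 such windows in the RefSeq table, 12.4% held TATAAA, 33.8% held CCAAT and 32.7% held GGGCGG. The core motif recognised by PPAR and related nuclear receptors, AGGTCA, was searched in the same way: 14% of all windows held it and, of the 8 windows that matched 7 of the 10 genes, only the Tuba8 window did. No window was matched for Tubb2b, Tubb6 or Stmn1.

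All values are the deposited signals, in arbitrary linear units. The mean signal, taken between the percentiles 2 and 98 of an array, was 499.6 to 499.98 on the 16 arrays, whereas the median ran from 108.3 to 163.0. Ppara itself read 1385 to 2308 on the WT arrays and 388 to 727 on the KO arrays. All 9 cardiomyocyte markers, all 9 fibroblast markers, all 7 endothelial markers and all 8 macrophage markers exceeded the filter on dim genes. The mean log2 signal of the atrial markers Myl4, Myl7 and Sln ranged from 5.03 to 13.04 across arrays. The hybridisation spike-in controls were lowest on KO TAC 2 and KO TAC 3 and highest on WT TAC 3. In such bulk tissue, fewer cells of a type and less RNA per cell cannot be told apart.

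The comparisons used limma on log2 signals with Benjamini-Hochberg adjustment over the 10916 genes that remained when the dimmest 40% were removed, each gene read by its brightest probe set, and a gene was called at an adjusted p under 0.05. Of the 10 tubulin and microtubule-associated genes, 9 passed the filter and Tubb3 did not. One gene was called: Tubb2a was 1.53-fold higher after TAC than after sham surgery in KO hearts, in a comparison in which 2.57% of all genes were called, 1.58% as higher. No other gene of the set was called in that or any other comparison. The background was 0.742% of genes called for KO against WT after sham surgery, 0% for TAC against sham in WT, 2.46% for KO against WT after TAC, and 0% for the difference between the genotypes' TAC responses. At an unadjusted p under 0.05, 2 of the 9 genes passed for KO against WT after sham surgery (Tubb2b and Tubb5; 8.52% of all genes), 3 for TAC in WT (Stmn1, Tubb2b and Tubb5; 7.62%), 2 for TAC in KO (Tuba4a and Tubb2a; 16%), 2 for KO against WT after TAC (Tuba4a and Tubb2a; 16.4%) and 4 for the difference of responses (Tuba4a, Tubb2a, Tubb2b and Tubb6; 10.3%). The median log2 difference over the 9 genes was 0.18 in WT and 0.12 in KO for TAC against sham, set against -0.00 and 0.00 over all genes. It was 0.15 and 0.14 for KO against WT after sham surgery and after TAC, against 0.02 and 0.03.

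**Figure D1:**
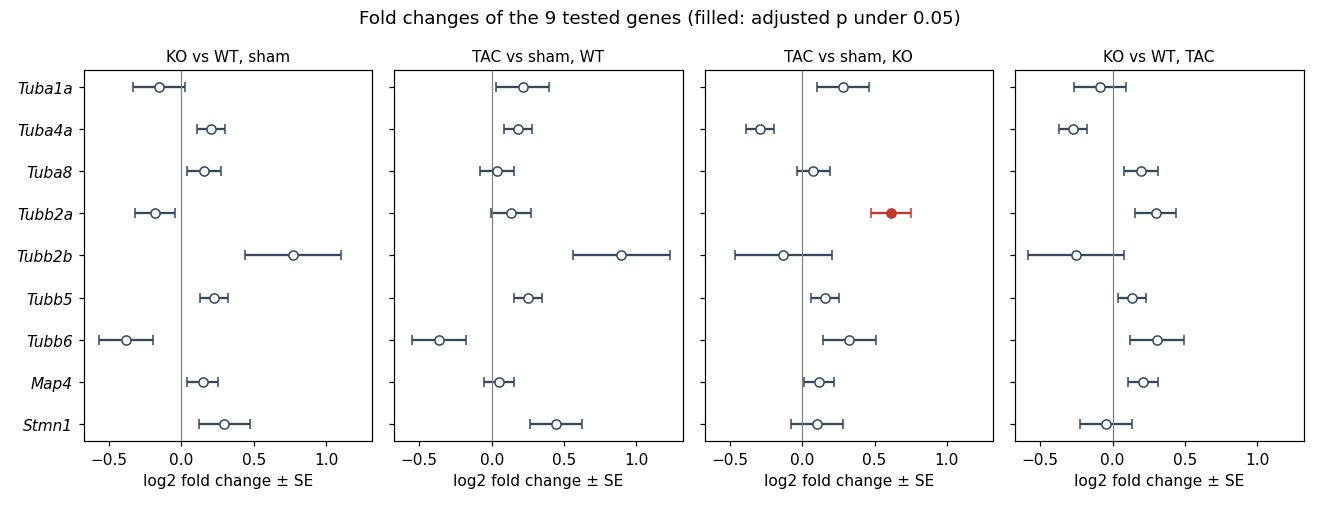
Log2 fold changes (x axis, point ± SE from limma, n = 4 arrays per group) of the 9 genes that passed the filter (y axis), with 1 panel per comparison; a filled point had an adjusted p under 0.05. The 1 filled point is Tubb2a for TAC over sham in KO, at 0.61 ± 0.14.

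Among the alpha-tubulins, Tuba4a, an isotype abundant in heart and skeletal muscle, showed opposite signs of the TAC difference in the genotypes, neither of which passed the adjusted test. Its signals were 45819, 45865, 50188 and 50638 in WT sham and 52208, 55323, 51482 and 59713 in WT TAC. In KO sham they were 55999, 60577, 49849 and 55904, and in KO TAC 49516, 45808, 39607 and 46642. The groups did not overlap in either genotype: all 4 WT TAC arrays lay above all 4 WT sham arrays, and all 4 KO TAC arrays lay below all 4 KO sham arrays and all 4 WT TAC arrays. The gap in KO was narrow, from 49516 to 49849. Groups free of overlap occurred for 4.28% of all genes in the WT comparison, 10.8% in the KO comparison and 9.55% for KO against WT after TAC. The log2 difference was 0.18 ± 0.10 (SE; limma adjusted p = 0.682) for TAC in WT and -0.29 ± 0.10 (unadjusted p = 0.00853, adjusted p = 0.137) for TAC in KO. The responses differed by -0.48 ± 0.14 on the log2 scale (95% interval -0.77 to -0.18), with an unadjusted p of 0.00341 and an adjusted limma p of 0.319. With a trended, robust limma prior the TAC difference in KO was called, at an adjusted p of 0.0395, and after quantile normalisation it was -0.12, with an adjusted p of 0.551. Quantile normalisation brought the difference in WT to 0.01 and the difference of responses to -0.12, and centring arrays on their medians brought the latter to -0.23. A second probe set of Tuba4a, 1417374_at, read 26494, 32621, 26630 and 27841 in KO sham and 24283, 24565, 20091 and 22945 in KO TAC, a log2 difference of -0.31, again without overlap. The third, 1417375_at, differed by 0.37 in the other direction. The summed signal of the 9 cardiomyocyte markers was likewise higher in WT TAC (615631 to 842034) than in WT sham (495744 to 592509), without overlap, and ran from 554140 to 662051 in KO sham and from 467156.5 to 594658 in KO TAC. The median log2 difference of these markers was 0.27 for TAC in WT, -0.22 in KO and -0.51 for the difference of responses, with 0 of 9 called by limma in each and 0 of 9 positive in the last. Their part in the Tuba4a values was not tested.

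Tuba1a, the alpha-tubulin best known from growing and developing cells, overlapped between every pair of groups compared. Its signals were 5833, 4827, 4923 and 4709 in WT sham, 5676, 7872, 5043 and 5238 in WT TAC, 4301, 5629.7, 3409 and 5127 in KO sham, and 5938, 6246, 5977 and 4188 in KO TAC. The log2 difference was 0.21 ± 0.18 for TAC in WT and 0.28 ± 0.18 for TAC in KO (limma adjusted p = 0.82 and 0.487). Its probe set, 1418884_x_at, is of a type that Affymetrix marks as liable to bind other transcripts, so signal from near-identical alpha-tubulins could be included. Tuba8, a divergent alpha-tubulin found in heart, muscle and testis, was even across the groups at its brightest probe set. It read 6599 to 8754 in WT sham, 7318 to 9159.9 in WT TAC, 7985 to 9949 in KO sham and 8817.5 to 10582 in KO TAC. Its log2 differences lay between 0.04 and 0.20 over the 5 comparisons, and none was called. With arrays centred on their medians, that for TAC in WT was -0.08. The second Tuba8 probe set, 1446771_at, differed by 0.28 ± 0.16 for TAC in KO (limma adjusted p = 0.474) and -0.03 ± 0.16 in WT (0.978). For KO against WT after sham surgery it gave -0.11 ± 0.16.

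Tubb2a, a beta-tubulin isotype that is also abundant in neurons, was the gene that rose. It read 1786, 1619.9, 1415 and 1555 in KO sham and 2654, 2861, 2109 and 2175 in KO TAC. In WT it read 2108, 1778, 1623 and 1746 after sham surgery and 1996, 2472, 1786.5 and 1735 after TAC. All 4 KO TAC arrays lay above all 4 KO sham arrays, whereas the WT groups overlapped. In the KO comparison 10.8% of all genes were free of overlap. The mean log2 signal was 10.63 ± 0.14 (SD, n = 4) in KO sham and 11.25 ± 0.22 in KO TAC, a rise of 0.61 ± 0.14 (SE; 95% interval 0.32 to 0.91; limma adjusted p = 0.0317). In WT the means were 10.82 ± 0.16 and 10.95 ± 0.23, a difference of 0.13 ± 0.14 (adjusted p = 0.87). The test of the difference between these responses, 0.48 ± 0.20 with an unadjusted p of 0.0272, did not pass after limma's adjustment (adjusted p = 0.434). KO TAC stood 0.30 ± 0.14 above WT TAC (adjusted p = 0.303), and KO sham 0.18 ± 0.14 below WT sham (log2 difference -0.18; adjusted p = 0.788).

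The Tubb2a call was close to its threshold and was lost on leaving out any of 5 single arrays. The limma adjusted p became 0.0683, 0.0896 and 0.079 without KO sham 2, 3 and 4, and 0.069 and 0.106 without KO TAC 1 and 2. The log2 difference itself stayed between 0.53 and 0.68 when any 1 array was removed. It was 0.60 when the 3 arrays at the extremes of the spike-in controls were dropped (adjusted p = 0.172). The value rests on probe set 1427347_s_at, of a type whose probes can match several transcripts. The other Tubb2a probe set, 1427838_at, was far dimmer and did not follow it, with 209, 243, 102 and 282 in KO sham and 213, 184, 87.1 and 172 in KO TAC, a log2 difference of -0.33 ± 0.34 (SE). Signal from a near-identical beta-tubulin at 1427347_s_at therefore could not be separated from Tubb2a.

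**Figure D2:**
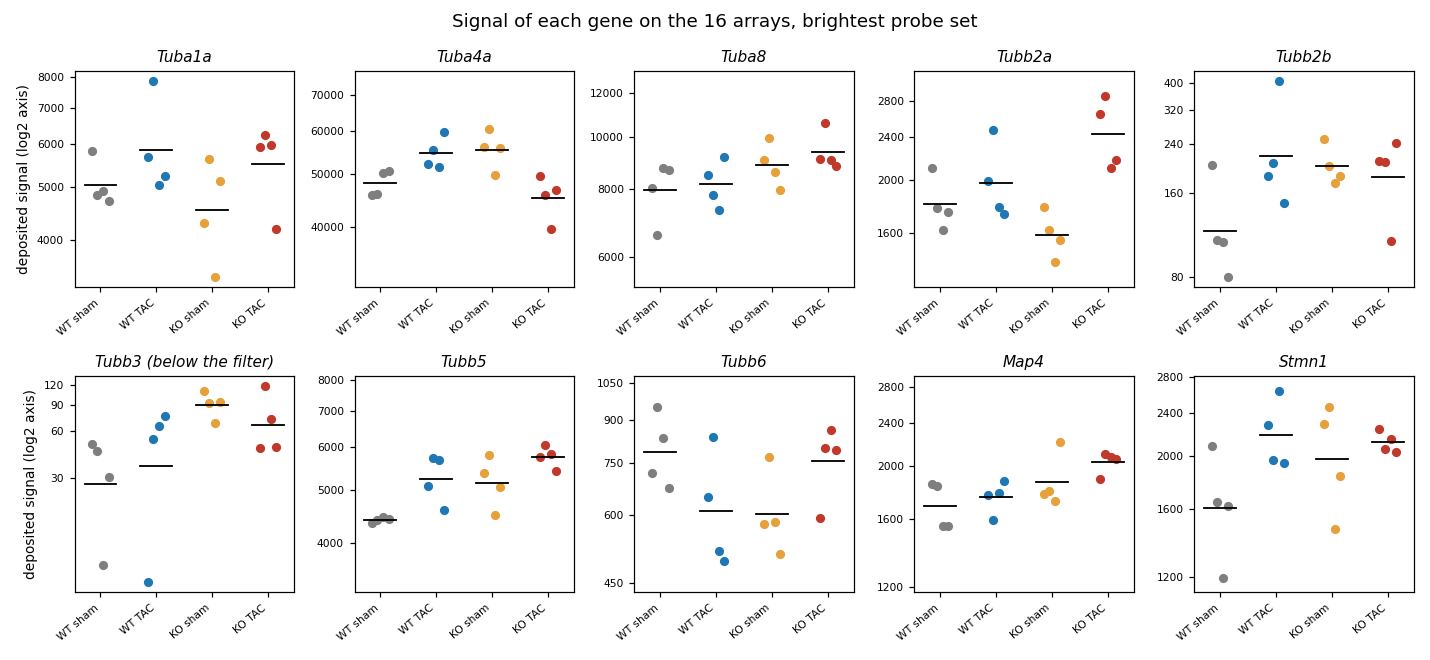
Deposited signal (y axis, log2 scale, a separate range for each gene) of the brightest probe set of each of the 10 genes on the 16 arrays, grouped along the x axis; each point is 1 array and each horizontal line the group mean of the log2 signals. The 4 KO TAC arrays of Tubb2a, at 2109 to 2861, lie above the 4 KO sham arrays, at 1415 to 1786, and the Tuba4a groups of KO are ordered the other way.

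Tubb5, the beta-tubulin found in most tissues, had the smallest spread within a group of any of the 10 genes. It read 4357, 4409, 4474 and 4436 in WT sham, which is an SD of 0.016 on the log2 scale, and 5090.2, 5732.5, 5685 and 4596 in WT TAC. It read 5378, 5802, 4499 and 5082 in KO sham and 5769, 6055, 5843 and 5439.7 in KO TAC. The 4 WT TAC arrays lay above the 4 WT sham arrays, and groups free of overlap occurred for 4.28% of all genes in that comparison. The log2 difference was 0.25 ± 0.10 for TAC in WT (limma adjusted p = 0.621), 0.16 ± 0.10 for TAC in KO (0.469) and 0.23 ± 0.10 for KO against WT after sham surgery (0.519). The second Tubb5 probe set, 1455719_at, was erratic in KO TAC, at 3775, 1937, 751 and 2990.1. Its log2 difference for TAC in KO was -0.51 with all arrays and 0.22 without the 3 arrays with extreme spike-in signals, among which were the arrays at 1937 and 751.

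Tubb2b, a neuronal beta-tubulin isotype close in sequence to Tubb2a, was dim and variable. It read 202, 109, 108 and 80.1 in WT sham, 184, 206, 407 and 148 in WT TAC, 251, 200.4, 175 and 185 in KO sham, and 209, 208, 108 and 242 in KO TAC. The highest WT TAC array, at 407, was well above the next, at 206, and both pairs of TAC and sham groups overlapped. The log2 difference of 0.90 ± 0.33 for TAC in WT and -0.13 ± 0.33 in KO had limma adjusted p-values of 0.609 and 0.906, and their difference of -1.03 ± 0.47 had one of 0.481.

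Tubb6, a divergent beta-tubulin whose overproduction disrupts the microtubule network, had TAC differences of opposite sign in the genotypes. It read 717, 948, 833 and 672 in WT sham and 648, 836, 516 and 495 in WT TAC. In KO it read 579, 768, 582.5 and 509 after sham surgery and 594, 798.5, 863 and 793 after TAC. The groups overlapped in each genotype. The log2 difference was -0.36 ± 0.18 for TAC in WT and 0.32 ± 0.18 in KO, and the responses differed by 0.69 ± 0.26, with an unadjusted p of 0.0186 and a limma adjusted p of 0.407. The dimmer Tubb6 probe set, 1446353_at, gave the reverse signs, 0.22 for TAC in WT and -0.21 in KO. Tubb3, a beta-tubulin of neurons, was too dim to be tested with the other genes. It read 8.0 to 49.4 in WT sham, 6.2 to 75.9 in WT TAC, 68.6 to 110.5 in KO sham and 46.6 to 119 in KO TAC. Fitted with all 18193 genes and no filter, with signals under 11.9 set to 11.9, its KO sham arrays stood 1.59 ± 0.57 above WT sham on the log2 scale, with an adjusted p of 0.538. For the neuron and Schwann cell markers, 2 of 11 passed the filter, and Nefl, Nefm, Snap25 and Prph did not.

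Map4, the main microtubule-associated protein of cells outside the nervous system, varied little at its brightest probe set, 1416091_at, whereas its other probe sets differed from it. The brightest read 1851, 1834, 1549.9 and 1551 in WT sham, 1772, 1588, 1787 and 1876 in WT TAC, 1777, 1802, 1727.5 and 2214 in KO sham, and 1891, 2101, 2082 and 2058 in KO TAC. The 4 KO TAC arrays lay above the 4 WT TAC arrays by a narrow gap, with a log2 difference of 0.21 ± 0.10 and a limma adjusted p of 0.327. Groups free of overlap occurred for 9.55% of all genes there. In the same comparison the other tested Map4 probe sets gave log2 differences of both signs, each with an unadjusted limma p under 0.05 and none called. They were 0.32 ± 0.11 at 1416092_a_at (adjusted p = 0.192), 0.50 ± 0.20 at 1439467_at (0.272) and -1.06 ± 0.39 at 1443702_at (0.224). The last read 1544.5, 2047, 716 and 1027.5 in WT TAC and 1065, 341.5, 364.5 and 927 in KO TAC, and the groups overlapped. Without the 3 arrays at the spike-in extremes the differences were 0.11, 0.37 and -0.58. Stmn1, which encodes stathmin, a protein that binds free tubulin, had its lowest value in WT sham. It read 2091, 1649, 1195 and 1619 there, 2278, 1966, 2640.2 and 1941.5 in WT TAC, 2288, 2459.5, 1470.1 and 1842 in KO sham, and 2246, 2064, 2151 and 2033.5 in KO TAC. The log2 difference was 0.45 ± 0.18 for TAC in WT (unadjusted p = 0.0251, limma adjusted p = 0.621) and 0.10 ± 0.18 for TAC in KO (adjusted p = 0.85). The far dimmer Stmn1 probe set, 1448113_at, differed by 0.13 ± 0.46 in WT (limma adjusted p = 0.974) and 0.74 ± 0.46 in KO (0.526).

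Reading all probe sets rather than the brightest of each gene gave no call. Of the 21 probe sets, 19 passed the filter and 0 were called in any comparison over 20967 probe sets. Of all these limma called 0.405% for KO against WT after sham surgery, 1.14% for TAC in KO but 0% for TAC in WT, 1.31% for KO against WT after TAC and 0% for the difference of responses. Tubb2a 1427347_s_at had an adjusted p of 0.0562 there. In the same order, 2, 4, 3, 4 and 4 of the 19 passed at an unadjusted p under 0.05, against 7.34%, 13.4%, 6.96%, 14.8% and 9.17% of all probe sets. Of the 7 genes with several tested probe sets, the probe sets all had 1 sign in 2 genes for TAC in KO, and in 4 genes for TAC in WT hearts. The exceptions in KO were those given above, among them Tubb6 1446353_at at -0.21, and Map4 1443702_at, at -0.82. Without the 3 arrays with extreme spike-in signals, these Tubb6 and Map4 values were 0.10 and -0.07, and Tubb2a 1427838_at was -0.03. The Tuba4a probe sets 1417373_a_at and 1417374_at remained at -0.21 and -0.26.

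**Figure D3:**
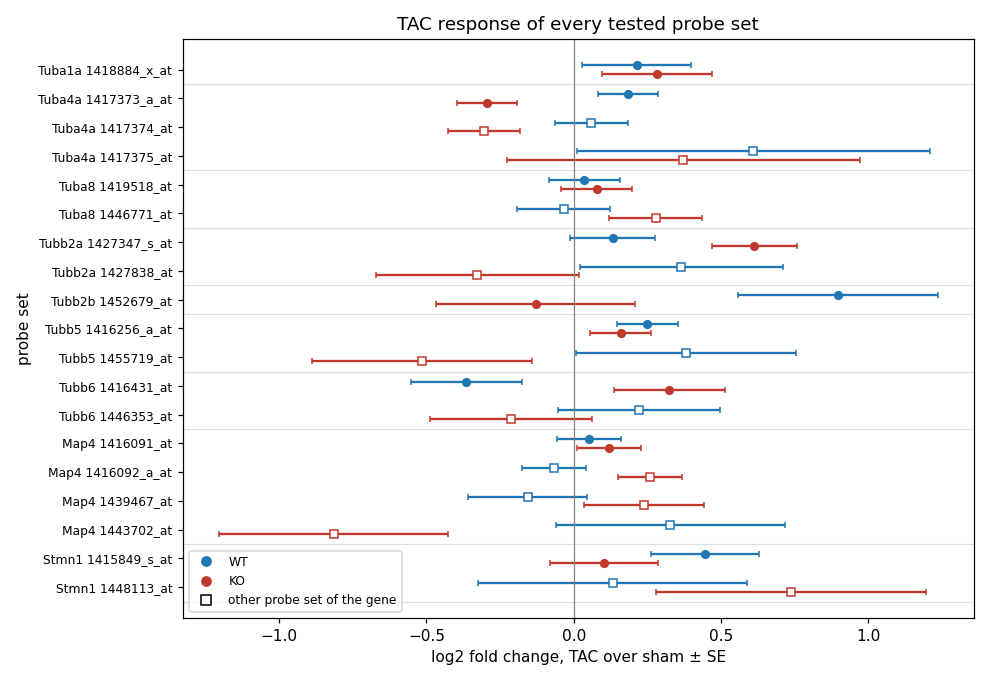
Log2 fold change of TAC over sham (x axis, ± SE, n = 4 arrays per group) for each of the 19 tested probe sets (y axis), in WT and in KO; open squares mark the probe sets that are not the brightest of their gene. For KO, the 2 Tubb2a probe sets lie at 0.61 and -0.33, on opposite sides of 0.

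Other genes of the microtubule system, and intermediate filament genes, were read from lists of 111 genes, of which 87 were tested. For TAC in KO, 4 were called higher and 1 lower, 5.747% of the 87 against 2.57% of all genes. Of the genes called higher, 2 (Des and Vim) were among the 6 intermediate filament genes and are not microtubule genes. For KO against WT after TAC 2 of the 87 were called, both higher, which is 2.299% against 2.46%. In the other 3 comparisons 0 were called by limma. None of the 6 tested further tubulins (of 12 listed) was called; the smallest p for TAC in KO was that of Tubb1, a dim gene known from platelets, at -1.13 ± 0.59 (limma adjusted p = 0.372). Of 30 tested genes (of 33) for tubulin folding, nucleation and modification, 2 were called for TAC in KO. Ttl encodes the ligase that restores the terminal tyrosine of alpha-tubulin. It read 461, 414, 490.0 and 465 in KO sham and 634, 736, 526 and 804.5 in KO TAC, a rise of 0.55 ± 0.13 on the log2 scale (limma adjusted p = 0.0432). Its call held on leaving out KO TAC 3 but was lost on leaving out any other of the 8 KO arrays, with adjusted p-values of 0.0616 to 0.134. Its other probe sets differed by 0.15 and -0.21. Of the 16 processing alternatives, 11 lost the Ttl call, among them quantile normalisation (limma adjusted p = 0.0602). Ttll1 encodes a subunit of a polyglutamylase, which adds glutamates to tubulin. It read 13007 to 16985 in KO sham and 6168.5 to 8081 in KO TAC and fell by 0.98 ± 0.15 on the log2 scale (adjusted p = 0.00287), a call kept on leaving out any 1 array. That value comes from an _x_at probe set, and the other Ttll1 probe sets differed by -0.41 and -0.23 without a call.

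Ckap4, which encodes a membrane protein of the endoplasmic reticulum that anchors it to microtubules, was 1 of 28 tested genes (of 37) for microtubule-binding, plus-end and severing proteins. It read 686 to 837 in KO sham and 1317 to 1858 in KO TAC, against 773 to 937 in WT sham and 805 to 1104 in WT TAC. Ckap4 rose 2.08-fold with TAC in KO (log2 1.06 ± 0.13, limma adjusted p = 0.000659) and was higher in KO TAC than in WT TAC by 0.70 ± 0.13 (adjusted p = 0.0116). The difference of responses, 0.85 ± 0.19, had an adjusted p of 0.199. Both calls held on leaving out any 1 array. Read without probe sets of the _x_at, _s_at and _a_at types, the difference with TAC in KO was 0.35, with an adjusted p of 0.387, and that between KO TAC and WT TAC was 0.33 (adjusted p = 0.406). The call between KO TAC and WT TAC was also lost with the spike-in level as covariate (0.47, adjusted p = 0.300), without the 3 arrays at the spike-in extremes (0.50, 0.237) and with only the arrays compared (0.0927). Mtus1, for a microtubule-associated protein, was higher in KO TAC than in WT TAC by 0.46 ± 0.11 (adjusted p = 0.0438). The Mtus1 call was lost on leaving out any of 6 arrays (all but WT TAC 2 and KO TAC 1), with adjusted p-values of 0.0837 to 0.143. The Mtus1 difference itself was 0.23 with the spike-in level as covariate (adjusted p = 0.610), 0.27 without the 3 arrays at the spike-in extremes (0.551) and 0.29 at its brightest probe set of another type (0.374). The 17 tested motor genes (of 23), for kinesins and dyneins, gave 0 calls, and the smallest adjusted p for TAC in KO was 0.114, for Kif5b, a kinesin-1 heavy chain.

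Among 6 intermediate filament genes, all tested, 2 were called higher for TAC in KO. Des encodes desmin, to which microtubules are anchored in heart muscle cells. It read 11632.5, 12413, 11615 and 15375 in KO sham and 15972, 17746.5, 17429 and 19509 in KO TAC, a rise of 0.48 ± 0.11 (limma adjusted p = 0.0391). The Des call was lost on leaving out any of 6 arrays (all but KO sham 4 and KO TAC 1), with adjusted p-values of 0.0937 to 0.106. Vim encodes vimentin, the intermediate filament protein of fibroblasts and endothelium. It read 7378 to 11169 in KO sham and 13627 to 14976 in KO TAC, a rise of 0.60 ± 0.12 (adjusted p = 0.0198). It was 0.44 ± 0.12 above sham in WT TAC, where the adjusted p was 0.554. The Vim call for KO was lost without KO sham 3 and without KO TAC 2, 3 or 4, with adjusted p-values of 0.0528 to 0.0634. Of the 16 processing alternatives 4 lost it, among them dropping the 3 arrays at the spike-in extremes (limma adjusted p = 0.156).

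**Figure D4:**
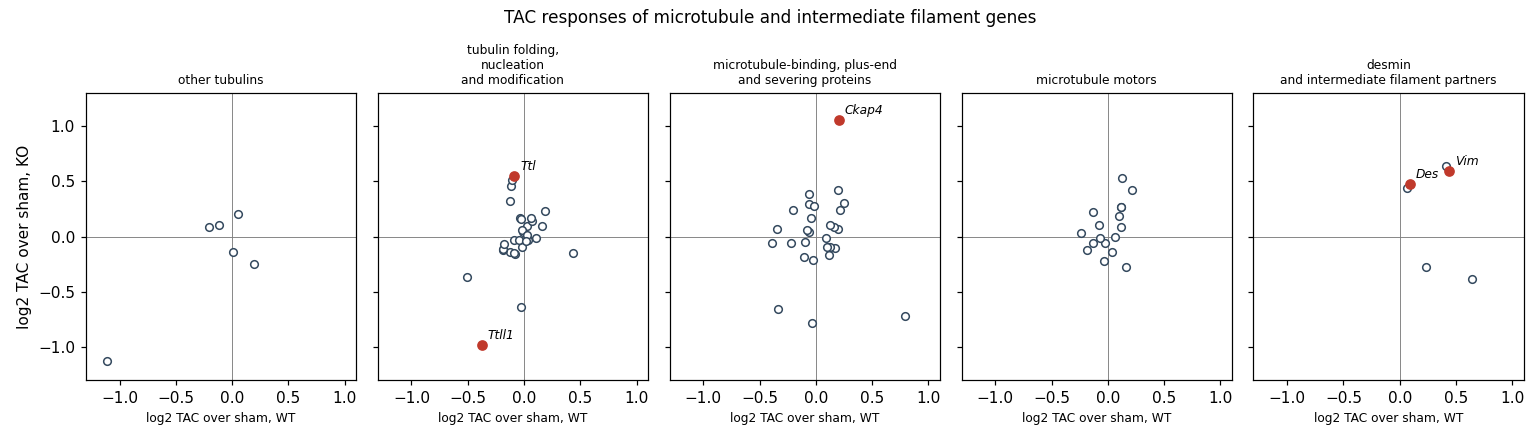
Log2 TAC over sham in KO (y axis) against the same in WT (x axis) for the 87 tested genes of the lists, with 1 panel per list and 1 point per gene; the genotypes share no array. The genes called for TAC in KO are named: Ckap4 at 1.06, Vim at 0.60, Ttl at 0.55, Des at 0.48 and Ttll1 at -0.98 on the y axis.

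Summed signals of fibroblast, proliferating cell and macrophage markers were also higher after TAC in KO hearts, where Tubb2a was called. That of the proliferating cell markers was higher after TAC in WT hearts too, where Tubb2a was not called. The summed signal of the 9 fibroblast markers was 45789 to 54052.5 in KO sham and 67773 to 75829.7 in KO TAC, against 47022 to 51238 in WT sham and 48032 to 63004.5 in WT TAC. Of these 9, limma called 4 higher for TAC in KO (Col1a2, Col3a1, Lum and Postn). The log2 difference was positive in 7 of the 9 and lowest for Dpt, at -0.19. The part of these markers in the Tubb2a, Vim and Ckap4 results was not tested. The sum of the proliferating cell markers was 665.5 to 1133 in KO sham and 1302 to 1874 in KO TAC. It was 825 to 944 in WT sham and 983 to 1524 in WT TAC, likewise without overlap. Mki67, Birc5 and Plk1 were below the filter, and 0 of the 4 that were tested were called. The endothelial markers gave 0 calls of 7 for TAC in KO, and the macrophage markers 0 of 8. All 8 macrophage markers had a positive log2 difference there. Their sum was 23595 to 26600 in KO sham and 26713 to 32995 in KO TAC, without overlap. For KO against WT after TAC, where Ckap4 and Mtus1 were called, limma also called the same 4 fibroblast markers, 2 of 8 macrophage markers (C1qa at 0.48 and C1qb at 0.64, adjusted p = 0.0438 and 0.00428) and the red blood cell marker Alas2 (1.07, adjusted p = 0.0189). Of the 9 fibroblast markers 7 were positive there, and Dpt and Tcf21 were lower, at -0.21 and -0.20. The macrophage sum was 19249 to 25599.5 in WT TAC and 26713 to 32995 in KO TAC, and the part of these markers in the Ckap4 and Mtus1 results was not tested. With the 3 atrial markers as a covariate, the Tubb2a difference was 0.59, with an adjusted p of 0.0615.

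**Figure D5:**
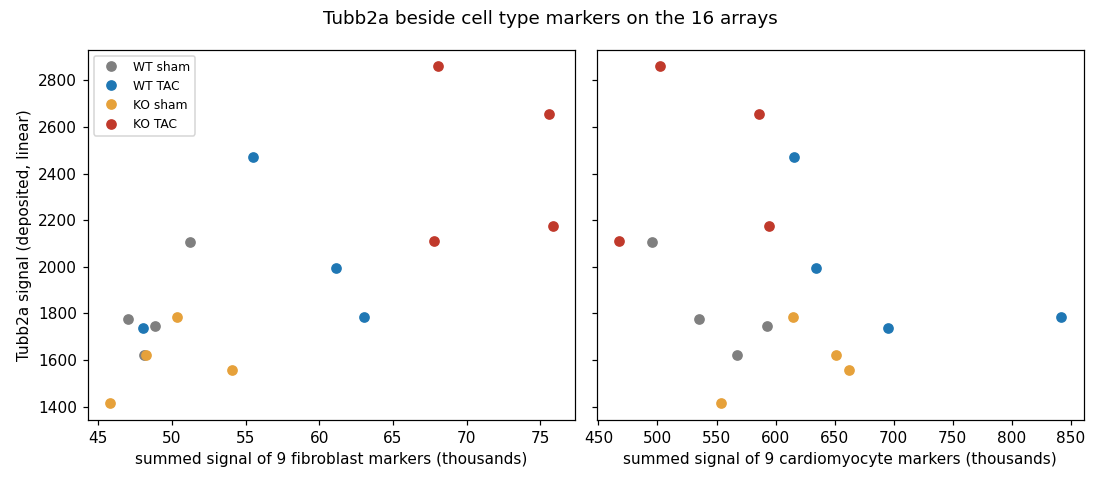
Tubb2a signal (y axis, deposited linear units) against the summed signal of 9 fibroblast markers and of 9 cardiomyocyte markers (x axes); each point is 1 of the 16 arrays, coloured by group. The 4 KO TAC arrays lie at the highest fibroblast sums, 67773 to 75829.7.

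The genes whose profile over the 16 arrays was closest to that of Tubb2a were taken by the root mean square difference of log2 signals, each gene centred on its own mean. They were Pcolce, a secreted enhancer of procollagen processing (0.148), Pdpn, the membrane glycoprotein podoplanin (0.149), and Shisa5 (0.149), against a median of 0.384 over all genes. On profiles scaled to the same variance they were Shisa5 (0.482), Psmd8, a proteasome subunit (0.500), and Trim47 (0.526). For TAC in KO the log2 difference was 0.60 for Pdpn (limma adjusted p = 0.0391) and 0.78 for Trim47 (0.0276), both called. It was 0.52 for Pcolce, 0.31 for Shisa5 and 0.32 for Psmd8, none of which was called (adjusted p = 0.0656, 0.129 and 0.115). These genes were chosen by likeness over the same arrays, so a rise in KO like that of Tubb2a follows in part from the choice.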

How the data were processed

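Per the submitters' processing notes, the authors processed the arrays with GCOS 1.4. The deposited values are linear intensity signals per probe set, and no further step is given in the sources used here. Of 45101 probe sets, 34945 were annotated with 1 gene, 932 with several, 9160 with none and 64 were controls; 34741 symbols were updated by gene ID to RefSeq and 204 were kept.

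Groups were taken from the sample titles. Signals were floored at their 10th percentile (11.9) and log2 transformed, without renormalisation. Each gene was read by its brightest probe set, and genes in the lowest 40% by mean signal were dropped, which also removes dim genes that differ. One limma fit (version 3.58.1, R 4.3.3) over all 16 arrays, with 1 coefficient per group and no covariate, gave 5 comparisons. Tests were two-sided, with Benjamini-Hochberg adjustment over 10916 genes and a threshold of 0.05. A second limma fit used all probe sets with 1 gene. Errors are SE from the fit, or SD over arrays. The number of arrays limits the precision. The scripts were tested on simulated data.

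The text names the 10 genes, the called genes of the microtubule and intermediate filament lists, and the 3 genes most like a called member by each of 2 measures. The members, lists and tests were chosen with earlier results of these data known. Processing alternatives numbered 16, and each array was left out in turn. No scan date or batch is given in the sources used here. TAC against sham in KO and KO against WT after TAC share the KO TAC arrays. Replicate numbers are not stated to pair arrays, and the main fit left the arrays unpaired. A check of pairing is given below.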

Additional observations from a re-analysis of the deposited data

Results flagged for a closer look

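A single array stood apart from the other 3 of its group (Dixon's test on log2 signals, 95% level) in 3 of 76 groups of values, or 3.95%. Chance gives about 1 in 20. Signals below are linear, and each gap is a share of the group's range on the log2 scale. For Tuba1a, KO TAC 4 was lowest, at 4188 against 5938 to 6246 on the others, a gap of 0.873. For Tubb6 probe set 1446353_at, KO TAC 3 was lowest, at 147 against 277 to 309.5, a gap of 0.853. For Map4 probe set 1416091_at, KO sham 4 was highest, at 2214 against 1727.5 to 1802, a gap of 0.83.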

How the results depend on the processing

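The count of the 10 genes called was 0 under each alternative that was run for KO against WT after sham surgery, for TAC in WT, for KO against WT after TAC and for the difference of responses. For TAC in KO it was 1 (Tubb2a). It became 0 with arrays centred on their medians (limma adjusted p = 0.0518), without a filter on dim genes (0.0887), with all probe sets tested separately (0.0562), with probe sets of a gene averaged (log2 0.14, 0.83), with only the arrays compared (0.0791), with spike-in level as a covariate (0.0989), on dropping the 3 arrays extreme in spike-in level (0.172), with the atrial markers as a covariate (0.0615) and without _x_at, _s_at and _a_at probe sets, where the value came from the other probe set and turned to -0.33 (0.715). It became 2 with a trended, robust prior, which added Tuba4a. Leaving out each array in turn gave 0 to 1. The fit with only the arrays compared could not be made for the difference of responses, which uses all arrays. The Tubb2a call held under the other 6 alternatives, among them quantile normalisation (0.0336). Centring moved the median of all genes by over 0.1 in 4 comparisons: to -0.12 and 0.13 for TAC in WT and KO, 0.22 for KO against WT after TAC and 0.25 for the difference of responses. It gave 158 genes higher and 18 lower for TAC in KO, against 173 and 107. Relative to that shift Tubb2a, at 0.74, stood 0.61 above the median. Replicate numbers are not stated to pair arrays. Deviations of same-numbered arrays correlated at -0.19 to 0.14 over 24 pairs, with a median of 0.005 and 5 of them over 0.1. Over 72 pairs with different numbers the range was -0.14 to 0.15, with a median of -0.005 and 5 over 0.1. With the replicate block, the count for TAC in KO stayed at 1 (Tubb2a, adjusted p = 0.0141), as 220 genes were called in place of 280. Single genes' values kept their direction and call in 655 of 701 processing alternatives and 412 of 432 leave-one-out fits, and 36 and 15 turned in sign with no call.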
